A study of Mus musculus with 127 samples.

Results

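Cell19 is a single nucleus of an F123 mouse embryonic stem cell that was cut into serial slices, and it is described here by where its autosomes lay along the cutting axis. It was chosen by its measured window counts per slice, as the nucleus whose slice positions held the most even numbers of located 10 kb windows. It contributed 12 of the 122 nuclear profiles in the series and 106936 of the 1132635 autosomal window entries.

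Sequential genome architecture mapping cuts a nucleus into thin slices, amplifies and sequences the DNA of each slice, and so gives each stretch of genome a place on the cutting axis. In mammalian interphase nuclei a chromosome usually occupies a compact territory, and its loci therefore tend to lie nearer to each other than to loci of other chromosomes. A slice passes through many territories at once, so its DNA is a cross-section of the genome and not a single chromosome.

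The series used F123 cells, a hybrid line with the strain label CAST x 129, grown with LIF on feeder cells that were then passaged away, with no treatment and no genetic modification named in the labels. The samples were the 122 profiles of 10 nuclei and 5 controls, which have no positions and were not used. Cell19 shared the title prefix B16F with Cell17, Cell18 and Cell20, and the 6 other nuclei carried the prefix B18F. All 10 nuclei come from the same line and cell type under the same stated culture, so they do not form conditions, and nothing in the labels says whether they came from separate cultures. The files hold positions of DNA and no expression, so marker genes cannot check the cell type.

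Each nucleus had 2 files of positions, numbered 0 and 1, whose difference in meaning is not given in the sources used here. In Cell19, file 0 placed 27758 autosomal windows, 11.3% of the 246084 on the autosomes, and file 1 placed 79178, or 32.2%. The other 9 nuclei had 52534 to 172914 autosomal entries over both files, so Cell19 ranked 6th of 10. The positions come without read counts, so the depth is unknown.

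Positions in Cell19 ran from 5.49 to 7.69 on an axis whose unit is not named, and most of them fell on 12 values spaced 0.2 apart. These values are called slice positions here and numbered from the lowest to the highest. The direction of the axis is arbitrary, and the profiles are not tied to slice positions in the files. On these steps lay 84.1% of file 0 and 71.5% of file 1, and the other 27016 entries lay between them. Counts per slice use entries on the steps, and mean positions use every entry.

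The 12 slice positions of Cell19 held, from the lowest to the highest, 4981, 12720, 4383, 3135, 6893, 8161, 7992, 6416, 4802, 7657, 5604 and 7176 windows. These counts add the files, so a window at a slice in both files counts once for each. Slice 2 was the fullest, with 15.9% of the windows, and slice 4 the emptiest, with 3.92%, where equal slices would hold 8.33% each. Both files put slice 2 first, with 15.7% of file 0 and 16% of file 1. The fullest slice held 4.06 times the windows of the emptiest. The next most even nucleus, Cell28, had a ratio of 8.13, and the other 9 ranged up to 89.7 in Cell18, with a median of 17.2. Shannon evenness, which is 1 for equal slices, was 0.976 in Cell19 and 0.899 in Cell28. These values chose the nucleus and were not tested.

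**Figure D1:**
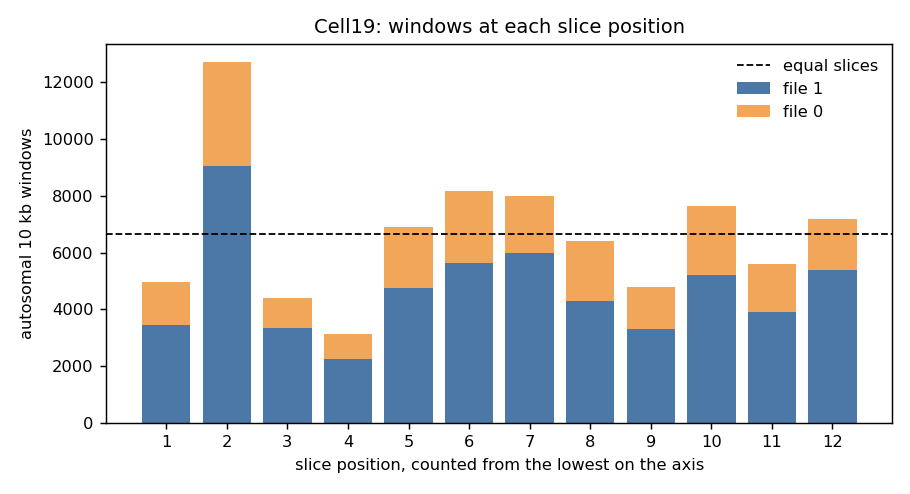
Bars give the number of autosomal 10 kb windows of Cell19 (vertical axis) at each of the 12 slice positions (horizontal axis), stacked by file, and the dashed line marks equal slices. Slice 2 stands highest with 12720 windows and slice 4 lowest with 3135.

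Every slice of Cell19 held windows of all 19 autosomes, in unequal shares. The share of a chromosome in a slice was divided by its share of all slices, which gives a fold of 1 where a slice takes the chromosome in proportion. Of the 228 pairs of slice and autosome, 22 (9.65%) were at or above 1.5 fold and 52 (22.8%) at or below its inverse. All 22 were above 1 in both files, 16 of them were at or above 1.5 fold in both, and all 52 low pairs were below 1 in both. The log2 folds of the files correlated across the 228 pairs (Pearson r = 0.81), but the files share windows, so they are not independent.

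The lowest slices were rich in chromosomes 9, 10, 11 and 13. In slice 1, chromosome 9 supplied 17.9% of the windows against 5.99% over all slices, a fold of 2.99 (2.77 in file 0 and 3.10 in file 1). Chromosome 11 reached 2.66 fold, chromosome 10 reached 2.29 fold and chromosome 13 reached 1.63 fold in the same slice. Chromosome 3 was the least represented there, at 0.227 fold with 82 windows. No other slice departed further from the average makeup: 28.0% of its windows would have to change chromosome to match it, against 9.58% to 17.5% in slices 2 to 12. Slice 2 kept chromosome 10 at 1.87 fold (2.35 and 1.69 in files 0 and 1), chromosome 13 at 1.75 fold and chromosome 11 at 1.61 fold, while chromosome 9 dropped to 1.03 fold. Slice 2 held 29.7% of all windows of chromosome 10, 27.8% of chromosome 13 and 25.7% of chromosome 11.

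Slices 3 and 4, the sparsest pair, turned to other chromosomes. Chromosome 15 led slice 3 at 1.59 fold (1.86 and 1.5 in files 0 and 1). Chromosome 12 led slice 4 at 1.91 fold (1.62 and 1.98), followed by chromosome 17 at 1.65 fold and chromosome 15 at 1.62 fold. These leading autosomes rest on 287 windows in slice 3 and 241 in slice 4.

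In the middle of the axis, chromosome 8 led slice 5 at 1.83 fold (2.23 and 1.61), with chromosome 4 at 1.5 and chromosome 9 again raised at 1.41. Slice 6 had the most even makeup, since its leading autosome, chromosome 4, stood at only 1.41 fold (1.35 and 1.44) and none reached 1.5. Slice 7 was led by chromosome 18 at 1.84 fold (2.46 and 1.67), with chromosome 14 at 1.81, chromosome 6 at 1.58 and chromosome 17 at 1.5. Chromosome 14 was the least represented autosome in slices 5 and 8, at 0.441 and 0.445 fold, and stood at 0.826 fold in slice 6. Chromosome 9 came back in slice 8 as the leading autosome at 1.72 fold (1.96 and 1.47), beside chromosome 16 at 1.49.

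In the upper slices, chromosomes 3, 16 and 7 took over. Slice 9 was led by chromosome 3 at 1.69 fold (1.99 and 1.49) and chromosome 16 at 1.67. Chromosome 7 led slice 10 at 1.80 fold (2.16 and 1.61) and slice 11 at 1.98 fold (2.25 and 1.85), and supplied 12.7% of the windows of slice 11. Chromosome 9 was lowest there, at 0.355 fold. Slice 12, the other end of the axis, was led by chromosome 12 at 1.82 fold (2.80 and 1.56), then by chromosome 14 at 1.48.

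**Figure D2:**
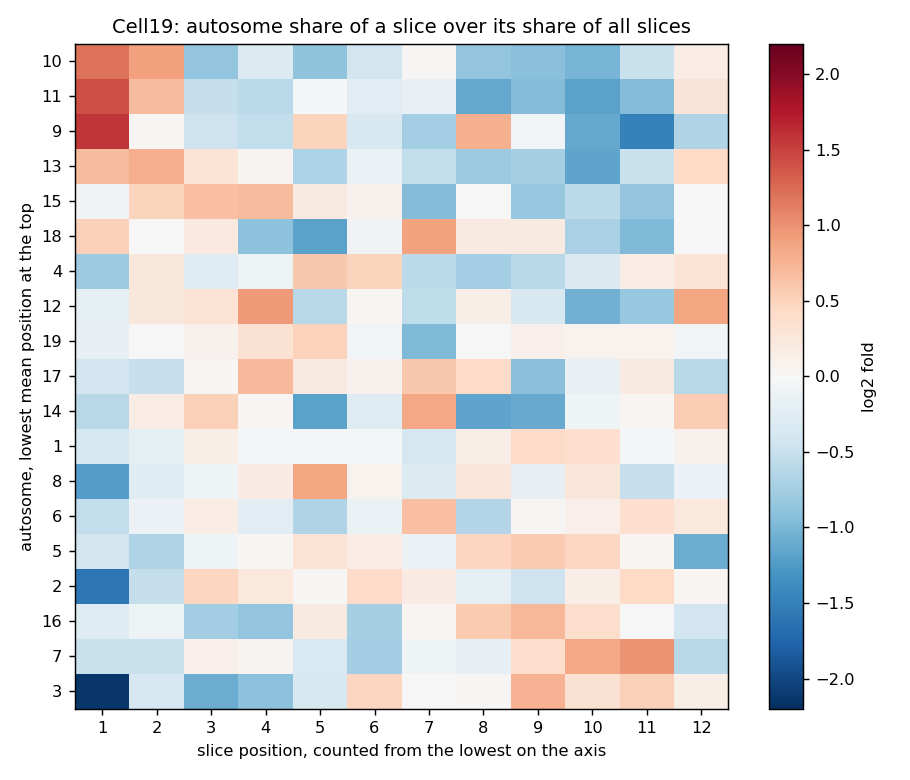
Colour gives the log2 fold of each autosome (rows, lowest mean position at the top) in each slice position (columns) of Cell19 over its share of all slices, red for above and blue for below. Red lies at the upper left for chromosomes 10, 11, 9 and 13 in slices 1 and 2, and at the lower right for chromosomes 16, 7 and 3 in slices 8 to 11.

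Neighbouring slices of Cell19 resembled each other in some stretches of the axis and not in others. The log2 folds of slices 10 and 11 correlated at r = 0.81 over the 19 autosomes, those of slices 3 and 4 at 0.66, of slices 1 and 2 at 0.65, of slices 9 and 10 at 0.62 and of slices 8 and 9 at 0.61. Makeup turned over between slices 2 and 3 (r = -0.07), 6 and 7 (-0.11), 7 and 8 (-0.19), and 11 and 12 (-0.15). Slice 12 was most like slice 2 (r = 0.59, with 0.64 in file 0 and 0.57 in file 1), although they lie near opposite ends of the axis. Slices 2 and 10 were the most unlike pair, at r = -0.81. The most similar slice was a direct neighbour for 9 of 12 slices (75%), against 6.67% to 71.4% of slices in the other nuclei, which have 7 to 23 slice positions, so that the shares are not on equal terms. The mean correlation of adjacent slices was 0.30 in Cell19, 7th of the 10 nuclei, with a median of 0.31 in the others. Folds within a nucleus are relative to the same total, so their correlations are not independent, and no test was made.

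Gene content differed little between the slices. Protein-coding genes with their midpoint in a located window numbered 7.99 per Mb in slice 6, the lowest, and 10.2 per Mb in slice 3, the highest. The ratio of highest to lowest was 1.27 in Cell19 and 1.54 ± 0.22 (SD, n = 9) in the other nuclei, which ran from 1.17 to 1.88. Cell19 lay inside that range, with only 1 nucleus below it (exact permutation test, 2-sided, p = 0.3, adjusted p = 0.9 over 10 results). Across the 12 slices, fuller slices tended to hold fewer genes per Mb (Spearman rho = -0.66, n = 12), with the number of windows entering both quantities.

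The autosomes of Cell19 had mean positions between slice 5.06 and slice 7.37, a range of 2.31 slices. The mean position of an autosome is the average of the 2 file means, in slice units. Chromosome 10 was lowest at 5.06 (4.30 in file 0 and 5.82 in file 1), followed by chromosome 11 at 5.11 (4.62 and 5.61) and chromosome 9 at 5.41 (5.38 and 5.43). Chromosome 13 at 5.58 and chromosome 15 at 5.63 came next. Chromosome 3 was highest at 7.37 (7.56 and 7.17), after chromosome 7 at 7.24 (7.56 and 6.92) and chromosome 16 at 6.99 (7.44 and 6.53). The remaining 11 autosomes lay between 6.32 for chromosome 18 and 6.87 for chromosome 2.

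Most neighbours in this order were closer together than the files were to each other. The files differed in an autosome's mean by a median of 0.297 slices and by up to 1.52 slices, for chromosome 10. What the files stand for, including whether they are the parental copies of a hybrid genome, is not given, so error and a true difference between the files cannot be told apart in this gap. Only 1 of the 18 steps between neighbours in the order exceeded that median, the step of 0.69 slices from chromosome 15 to chromosome 18. The 5 autosomes below that step, 9, 10, 11, 13 and 15, were also the lowest 5 in file 0 and in file 1 taken alone. They were still the lowest 5 in each file after windows listed in both files were left out. With the outermost slice positions left out, file 1 kept all 5, whereas in file 0 and in the mean of the files chromosome 12 replaced chromosome 9. The step above the lowest 5, in the mean of the files, fell to 0.33 slices without shared windows and to 0.15 without the outermost slices. Chromosome 10 remained lowest in the mean of the files under each of these settings, and the highest was chromosome 3 or, without the outermost slices, chromosome 7.

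The order in file 0 and file 1 correlated at Spearman rho = 0.76 over the 19 autosomes, where the other nuclei had 0.84 ± 0.07 (SD, n = 9). The distance between the lowest and the highest autosome, taken in each file and then averaged, was 22.8% of the sampled axis in Cell19. In the others it was 16.7% ± 7.12 (SD, n = 9). Both values lay inside the range of the other nuclei, although the order agreement was further from their mean than 1 SD (exact permutation tests, 2-sided, p = 0.5 and p = 0.6, both adjusted p = 0.9). With the median in place of the mean position of each autosome, the span was 36.2% in Cell19 and a mean of 23.5% in the others (exact permutation test, p = 0.2). With mean positions, the span of Cell19 was 29.7% in file 0, against a mean of 17.7% in the others. In file 1 it was 15.8%, against 15.7%. Without windows listed in both files it was 18.5%, against 14.7%. Across the 19 autosomes, mean position and gene density had almost no common order (Spearman rho = -0.02, n = 19).

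**Figure D3:**
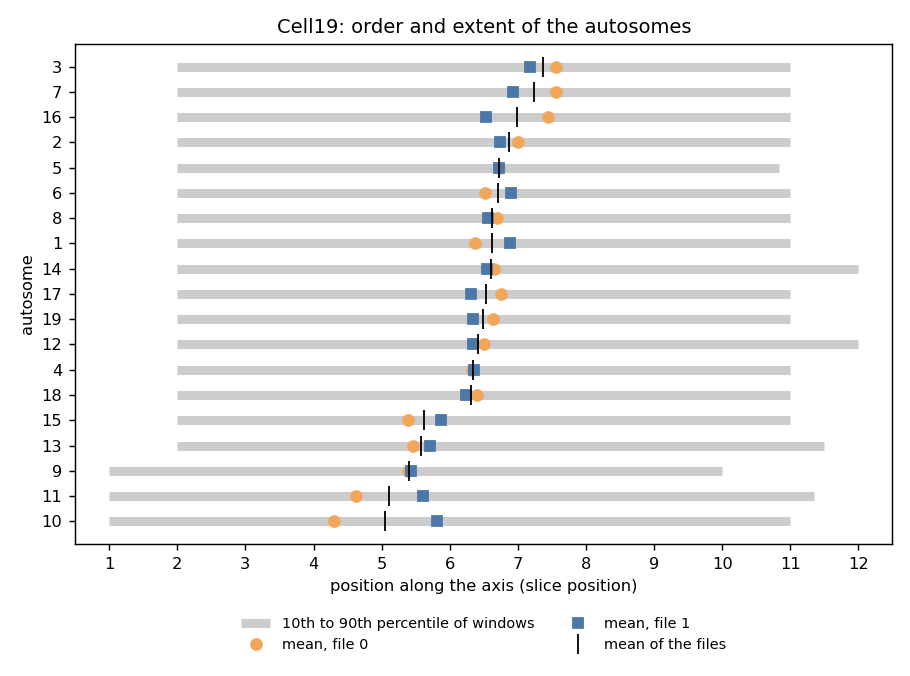
Mean position of each autosome of Cell19 (rows, in order) along the axis in slice units, with file 0 as circles, file 1 as squares, their mean as a tick and a grey bar from the 10th to the 90th percentile of windows. The means span 2.31 slices while every bar covers most of the 12 slices.

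The windows of each autosome of Cell19 were spread along nearly the whole axis. All 19 autosomes had windows at all 12 slice positions, and the 10th to the 90th percentile of the windows of chromosome 3, for example, ran from slice 2 to slice 11. Whether a file holds 1 parental copy or both is not given. The extent is therefore that of an autosome's windows and need not be that of a single copy. Relative extent, the SD of a chromosome's window positions over that of all autosomal windows (3.32 slices), ran from 0.903 to 1.08. Chromosome 8 (0.903) and chromosome 3 (0.906) were narrowest, and chromosome 12 (1.08) and chromosome 13 (1.08) widest. The median of the 19 autosomes, taken in each file and then averaged, was 0.983. In the other nuclei it was 0.960 ± 0.085 (SD, n = 9) (exact permutation test, 2-sided, p = 0.6, adjusted p = 0.9). Extent and chromosome length were weakly and inversely ordered (Spearman rho = -0.24, n = 19).

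Relative extent lay outside the range of the 9 other nuclei for 3 of 19 autosomes (15.8%). Chromosome 3 was narrower, at 0.906 where the others began at 0.934. Chromosome 17 was also narrower, at 0.911 against a lowest value of 0.942. Chromosome 11 was wider, at 1.08 against a highest value of 0.999. Window density, the number of windows per Mb relative to all autosomes, lay outside the others' range for 3 of 19 (15.8%) as well. Chromosome 5 was the most densely located autosome of Cell19, at 1.33 against 0.842 to 1.22 elsewhere. Chromosome 11 was sparse, at 0.768 against 0.865 to 1.32. Chromosome 3, at 1.121, only just passed the highest other value of 1.120. For any autosome, the lowest and the highest of the 10 nuclei always lie outside the range of the other 9. Autosomes outside the range therefore arise without any trait particular to Cell19, and neither count was tested.

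Within autosomes, different stretches had different mean positions. The autosomes were divided into 249 segments of 10 Mb, whose means ran from 3.08 to 9.12 slices, a wider range than that of whole chromosomes. A segment mean is over the windows of both files together, so the file with more windows weighs more. The file 0 and file 1 means of the segments correlated at r = 0.81 (n = 249 segments, which share chromosomes, and files that share windows). Chromosome 9 held the lowest segment, chr9:40000001-50000000, at 3.08 (2.49 in file 0 and 3.48 in file 1), and 52.6% of its on-step windows were in slice 1. Along that chromosome the mean rose from there to 7.95 at its distal end, chr9:120000001-124500000, where 54.9% of windows were in slice 8. Chromosome 9 was thus the leading autosome of both slice 1 and slice 8 with different stretches of its sequence.

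Chromosome 7 covered a still wider range. Its first segment, chr7:1-10000000, averaged 3.66 (3.41 and 3.74), the second lowest of all. Its last, chr7:140000001-145350000, averaged 9.12 (9.81 and 8.75), the highest of all, and chr7:60000001-70000000 was next at 8.66 (9.50 and 8.31). On chromosome 3 the segment chr3:50000001-60000000 was the third highest, at 8.37. Over single 1 Mb bins, coordinate and position were most strongly related on chromosome 18 (Spearman rho = 0.67 over 88 bins), then on chromosome 9 (0.49) and chromosome 1 (0.43). Chromosome 12 ran the other way (rho = -0.24). Bins of a chromosome are neighbours in sequence, so these correlations describe a path and carry no test.

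**Figure D4:**
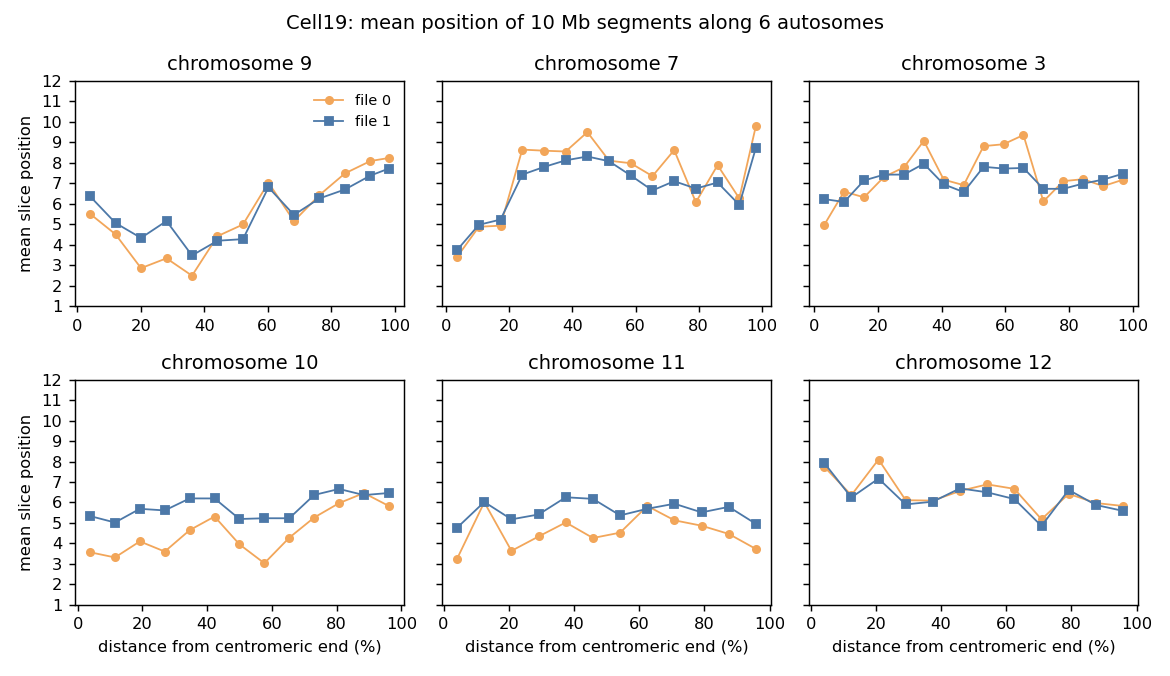
Mean slice position (vertical axis) of successive 10 Mb segments along 6 autosomes of Cell19, by distance from the centromeric end as a percent of chromosome length, for file 0 and file 1. Over the windows of both files together, chromosome 9 falls to 3.08 and climbs to 7.95 at its far end. Chromosome 7 starts at 3.66 and ends at 9.12.

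The ends of the autosomes lay at many positions along the axis. The centromere of a mouse chromosome lies where its coordinates begin, and the 10 Mb after the unsequenced start averaged 3.95 slices on chromosome 7 and up to 8.25 on chromosome 17. The last 10 Mb ranged from 4.70 on chromosome 11 to 8.27 on chromosome 7. The distal end lay at a higher position than the centromeric end on 14 of 19 autosomes. Chromosomes 12, 15, 16, 18 and 19, which carry ribosomal gene arrays in many mouse strains, had centromeric ends between 5.37 and 7.37, inside the range of the rest.

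Loci of the same autosome were closer along the axis than loci of different ones, mainly over short distances. The mean distance between 1 Mb bins of different autosomes over that of bins of the same autosome was 0.11 on the log2 scale in Cell19 and 0.12 ± 0.08 (SD, n = 9) in the other nuclei (exact permutation test, 2-sided, p = 0.9, adjusted p = 0.9). The value for Cell19 fell to 0.06 with 250 kb bins and to 0.06 with windows listed in both files left out, where the others had means of 0.06 and 0.08. Bins 1 Mb apart were at 0.693 of the distance of bins on different autosomes (0.728 in file 0 and 0.657 in file 1), where the other nuclei had 0.745 ± 0.094 (SD, n = 9) (exact permutation test, 2-sided, p = 0.9, adjusted p = 0.9). At 5 Mb the ratio was 0.845 and at 10 Mb it was 0.877. It stayed at 0.879 up to 20 Mb, then rose to 0.981 at 50 Mb. At 100 Mb it was 0.993, above the 0.892 to 0.990 of the other nuclei, a difference not tested.

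Single windows showed the same decline. In file 0, 59.8% of window pairs 10 kb apart lay in the same slice, 21.4% at 1 Mb and 13.8% at 5 Mb, where slice sizes alone give 9.45%. In file 1 the shares were 38.0%, 13.9% and 10.7%, against 9.40% from slice sizes.

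At the level of 1 Mb bins, 2403 autosomal bins had at least 10 on-step windows, and the fullest slice of a bin held a median of 32.0% of them. That median adds the files. Within each file, over bins with at least 10 on-step windows in that file, the mean was 48.9% in file 0 and 33.5% in file 1. The average of the 2 files was 41.2%, against 44.3% ± 10.9 (SD, n = 9) in the other nuclei (exact permutation test, 2-sided, p = 0.8, adjusted p = 0.9). A bin was called concentrated where 1 slice held at least 50% of its windows. By that rule 322 of 2403 bins (13.4%) were concentrated in Cell19, and in the other nuclei the share ran from 4.49% in Cell17 to 81.7% in Cell39. It was 8.29% in Cell20, the only other nucleus with 12 slice positions. The nuclei also differ in how evenly windows fill the slices, and the fullest slice of Cell39 held 64.3% of its windows. Concentrated bins held a median of 40 on-step windows and the other bins 30. Of the 322, 32.9% adjoined another bin concentrated in the same slice.

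Chromosome 9 stood highest in this respect, with 46 of 122 bins (37.7%) concentrated, then chromosome 19 with 12 of 59 (20.3%). Chromosome 14 was lowest, with 7 of 122 (5.74%). These counts add the files, so a window at the same slice in both files counts once for each and can raise its bin's share. Such double listing differed between autosomes. Of the file 1 windows, 2625 of 3937 on chromosome 9 and 1206 of 1822 on chromosome 19 were in that file alone. On chromosome 14 it was 3122 of 3981. Slice 2 was the fullest slice of 707 bins, of which 67 were concentrated. The counts were 50 of 181 in slice 10, 47 of 192 in slice 5 and 40 of 169 in slice 1. Slice 2 thus had the most of the 322 concentrated bins, but a lower share than slices 10, 5 and 1. Only 3 of 63 were concentrated in slice 4 and 7 of 225 in slice 7. Slice 7 was among the fuller slices, and its 7992 windows came from 2116 bins.

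The bin most concentrated in each slice, among the 1289 bins with at least 30 on-step windows, is described here. It made up a small part of the slice, for example 24 of the 12720 windows of slice 2. Each is named with the protein-coding gene that overlaps it over the longest stretch, which need not be most of the bin. Genes are from RefSeq on assembly GRCm38.p6, whose coordinates are those of mm10. Counts add the files as before, and the windows at the slice come to 18 to 40 distinct windows per bin, for example 40 for the Nxpe4 bin, 18 for the Nfic bin and 38 for the Trp63 bin. In slice 1 it was chr9:48000001-49000000 with Nxpe4, where 53 of 68 windows (77.9%) lay, and the bins before and after it had 69.9% and 52.9% there. Slice 2 had chr10:81000001-82000000 with Nfic, a transcription factor of the nuclear factor I family, at 24 of 34 windows (70.6%). That bin lies in a gene-rich stretch with 51 protein-coding genes, and its neighbours had 30.8% and 24.1%. In slice 3 it was chr9:67000001-68000000 with Tln2, a talin that links integrins to actin, at 48 of 66 windows (72.7%).

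Slice 4 had chr4:131000001-132000000 with Epb41, a protein of the membrane skeleton, at 35 of 56 windows (62.5%), whereas the neighbouring bins had 16.7% and 0. In slice 5 it was chr8:26000001-27000000 with Hook3, an adaptor to microtubule motors, at 55 of 74 windows (74.3%). Slice 6 had chr1:82000001-83000000 with Col4a4, a basement membrane collagen chain, at 25 of 33 windows (75.8%), nearly all from file 1. Slice 7 had the weakest such bin, chr5:94000001-95000000 with Pramel38, at 22 of 42 windows (52.4%), of which 3 of 9 were in file 0. In slice 8 it was chr9:118000001-119000000 with Itga9, an integrin alpha chain, at 41 of 51 windows (80.4%).

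Slice 9 had chr18:78000001-79000000 with Slc14a2, a urea transporter, at 20 of 32 windows (62.5%). In slice 10 it was chr16:25000001-26000000 with Trp63, the p63 transcription factor of stratified epithelia, at 52 of 64 windows (81.3%), the highest share of any bin. All 29 on-step windows of that bin in file 0 and 23 of 35 in file 1 were there. Slice 11 had chr7:65000001-66000000 with Tjp1, a scaffold of tight junctions, at 45 of 60 windows (75%). Slice 12 had chr12:20000001-21000000 with LOC108167368, at 30 of 55 windows (54.5%). These 12 bins were chosen for their shares, which are a description. Chromosome 9 supplied 3 of the 12, in slices 1, 3 and 8.

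The longest runs of consecutive bins with the same fullest slice lay in the low slices. The longest covered 13 Mb, chr15:41000001-54000000, in slice 2, with 36.0% of its windows there (42.4% in file 0 and 33.7% in file 1). A run of 10 Mb, chr11:25000001-35000000, was also in slice 2, at 47.7% (73.3% and 36.0%). Of the pair of 9 Mb runs, chr9:27000001-36000000 was in slice 1 at 54% (67.9% and 46.5%) and chr13:55000001-64000000 in slice 2 at 41.4% (50% and 39.2%). The 4 runs of 8 Mb lay in slices 2, 6 and 12. Most runs were short, since 1041 were a single bin and 274 were 2 bins long. In 274 bins the fullest slice was tied, and the lower slice was taken, which favours low slices. Slice 2 was the fullest slice of 707 of the 2403 bins, more than any other slice, which by itself makes long runs there more likely.

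The files agreed on the fullest slice for 540 of the 935 bins that both covered (57.8%). How often each slice was the fullest in each file would alone give 10.5%. With windows listed in both files left out, 46 such bins agreed (39.7% of those left). The other nuclei had 45.9% to 76.7% with all windows, from unequal numbers of slices. In them, how often each slice was the fullest would alone give 12.1% (Cell17) to 60.1% (Cell38). The shares of the nuclei are therefore not on equal terms. The mean distance between the files at the same bin over that of bins on different autosomes was -0.64 on the log2 scale in Cell19 and -0.62 ± 0.36 (SD, n = 9) in the others (exact permutation test, 2-sided, p = 0.9, adjusted p = 0.9). With windows listed in both files left out, it was much nearer to 0, at -0.23 in Cell19 and a mean of -0.21 in the others.

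In Cell19, 16540 autosomal windows were in both files, which is 59.6% of file 0 and 20.9% of file 1. That is 1.85 times the 8931 that independent files would share, against 1.67 ± 0.375 times (SD, n = 9) in the other nuclei (exact permutation test, 2-sided, p = 0.7, adjusted p = 0.9). Of these windows, 54.8% had an identical position in both files. Among the 10183 on a step in both files, 1124 were at different slices. The makeup of slices by chromosome departed from the average by 17.5% in Cell19, averaged over slices and files, and by 16.3% ± 6.65 (SD, n = 9) in the others (exact permutation test, 2-sided, p = 0.9, adjusted p = 0.9).

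**Figure D5:**
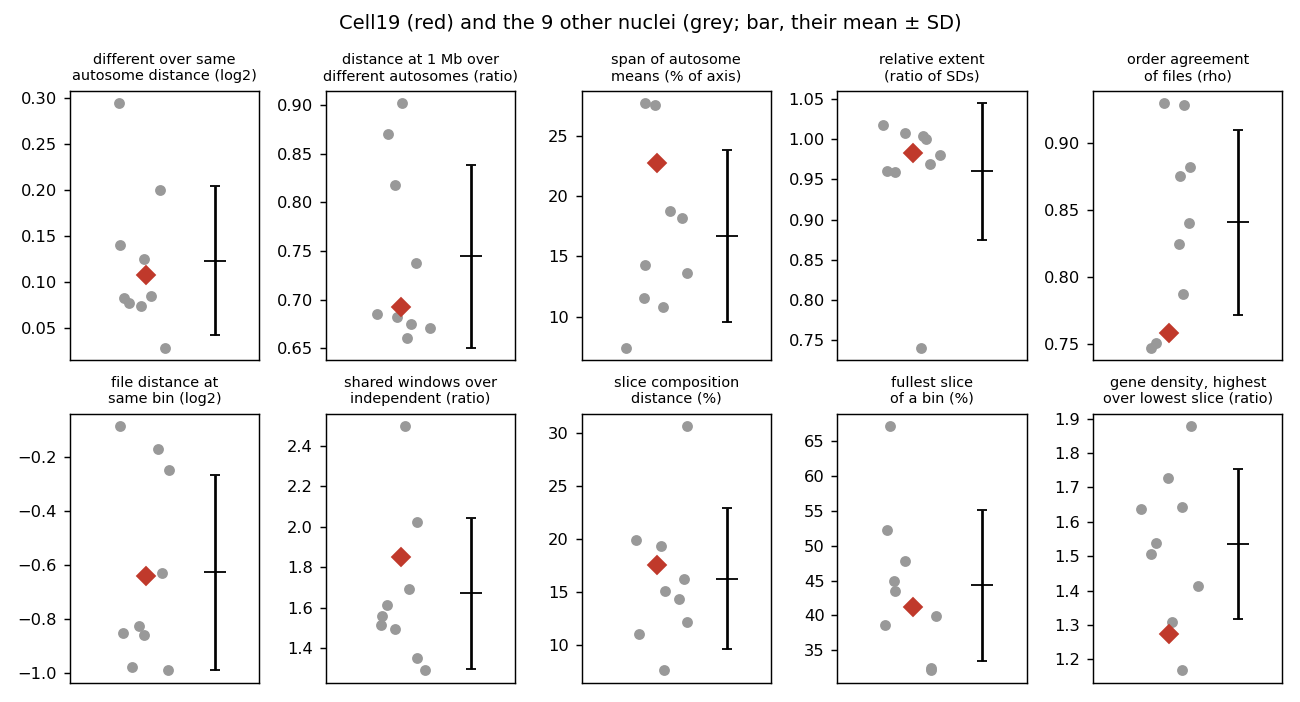
Each panel plots 1 measure for Cell19 (red diamond) and the 9 other nuclei (grey points, spread sideways for sight) with the mean ± SD of the 9 as a bar, and the axis units are in the panel titles. Cell19 lies within the range of the 9 others in all 10 panels, for example at 22.8% in the span of autosome means.

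A nucleus set against 9 cannot give a p under 0.1 in the exact permutation test, so none of the 10 comparisons could have passed 0.05. Cell19 lay inside the range of the other 9 in each of them. Slices of a nucleus are not replicates, so each nucleus gave 1 value.

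Genes of the pluripotency network, which keeps embryonic stem cells self-renewing, were spread over the axis. Their 20 genes fell in 19 bins of Cell19, and 2 of these (10.5%) were concentrated, near the 13.4% of all bins. The median position of the 19 bins was 6.86 slices, against 6.36 for all bins. Values below are for the 1 Mb bin around a gene and not for the gene itself. Bin means are over the windows of both files together.

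The bins of the core factors had means from 5.53 to 7.93. The bin of Pou5f1, which encodes the transcription factor OCT4, averaged 5.53 slices (6.29 in file 0 and 5.24 in file 1), and no slice held more than 16.1% of it. The bin shared by Nanog, a homeobox factor, and Dppa3, a maternal effect gene, averaged 6.75 (5.69 and 7.0). The bin of Sox2, the partner of OCT4, averaged 7.93 (8.10 and 7.78), with 48.3% in slice 9.

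Among the other transcription factors, the bin of Esrrb, a nuclear receptor, was lowest of the list at 4.53 (3.72 and 4.70). The bin of Klf4 averaged 4.83, that of Klf5 averaged 6.33 and that of Klf2 averaged 7.51, all 3 of them Krüppel-like factors. The bin of Zfp42, the marker gene REX1, averaged 6.53, that of Sall4, a zinc finger factor, 6.56, that of Prdm14 6.86 and that of Tbx3, a T-box factor, 6.95. The bin of Tfcp2l1, a naive-state factor, averaged 7.83.

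The highest of the list was the bin of Fgf4, a growth factor that drives exit from self-renewal, at 9.21 (9.68 and 8.91), with 56.3% in slice 10. The bin of Utf1, a chromatin factor also near the distal end of chromosome 7, averaged 6.33 and had 61.1% of 18 windows in slice 7. These are the 2 concentrated bins of the list. The bin of Tcl1, a coactivator of the AKT kinase, averaged 5.70, that of Lin28a, an RNA-binding protein, 7.0, and that of Dppa5a, an RNA-binding protein of early embryos, 7.10. The bin of Lefty1, an inhibitor of Nodal signalling, averaged 7.57 and that of Tdgf1, a Nodal co-receptor, 8.12.

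In the other gene groups, from 0 to 20% of bins were concentrated, mostly out of few bins. Of 17 bins with imprinted genes, which are expressed from 1 parental copy, only that of Igf2r was concentrated (5.88%), with 54.3% in slice 11. Imprinted bins ran from 4.14 for Plagl1 to 9.74 for H19 and Igf2, which share a bin. Of 14 bins with housekeeping genes, only that of Tbp was concentrated (7.14%), with 73.5% in slice 10. They ran from 3.40 for Ppia, which encodes cyclophilin A, to 8.80 for Tbp, the TATA-binding protein.

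None of the 5 bins of the Hox clusters, which pattern the body axis, was concentrated. The bin of Hoxb1 was lowest at 4.71. The bins of the Hoxc cluster stood at 6.83 (Hoxc4) and 7.23 (Hoxc13). The bin of Hoxd1, located in file 1 alone, was highest at 7.79. Of 5 bins with replication-dependent histone genes, 1 was concentrated, that of H2aw on chromosome 11 with 50% of 20 windows in slice 1. They ran from 4.68 for H1f5 on chromosome 13 to 8.40 for H2ac18 on chromosome 3. Of 81 bins with olfactory receptor genes, 12 (14.8%) were concentrated, and they ran from 2.80 for Olfr222 on chromosome 11 to 8.80 for Olfr33 on chromosome 7.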

How the data were processed

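Nuclear profiles were amplified as whole genomes and sequenced on a HiSeq X, per the labels' protocols. Trim Galore 0.6.4, Bowtie2 2.3.5, Picard and mm10 are named in the submitters' processing notes. The values deposited by the authors are positions of 10 kb windows on the slicing axis, in an unnamed unit other than counts, per the file headers. How reads of several profiles became a single position per window is not given in the sources used here. Precision is limited by the number of located windows.

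Positions within 1e-06 axis units of a 0.2 step were taken as on a slice position. Bins were 1 Mb, and bin means used every window. Distances are absolute differences of bin means. The 9 other nuclei were compared by 2-sided exact permutation tests with Benjamini-Hochberg adjustment over 10 results, each from 1 value per nucleus, the mean of the 2 files unless stated. Gene positions came from the RefSeq table of GRCm38.p6 with 20661 protein-coding genes on the autosomes. Of the listed names, 21 of 22 imprinted and 14 of 16 housekeeping genes matched an autosomal gene. Cell19, its measures and the gene lists were chosen with earlier results of these data known. Named were, in each slice, the autosome most above its share and the most concentrated bin, the 3 lowest and 3 highest autosomes, the 2 widest and 2 narrowest, the longest runs, all pluripotency genes and the ends of each other list. Other autosomes, segments and the 5 low autosomes were singled out after their values were seen. The alternatives were 250 kb bins, a minimum of 5 windows per bin, median positions, single files, on-step windows, shared windows or outermost slices left out, the 3 other B16F nuclei and Cell20 alone. The different against same autosome distance, relative extent, the order of autosomes and its agreement between files were checked on simulated data. The other measures were not checked in this way. Python 3.11.15, numpy 2.4.6 and pandas 2.3.3 were used.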

Additional observations from a re-analysis of the deposited data

Results flagged for a closer look

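Cell39, not Cell19, stood apart from the other 9 nuclei in 2 of the 10 measures, by the gap between it and the nearest nucleus relative to the range of all. Its relative extent of autosomes was 0.741, the lowest, with a gap of 0.786 of the range. The chromosome makeup of its slices departed from the average by 30.7%, the highest, with a gap of 0.468 of the range. Chance gives such a gap in about 1 in 20 groups. Cell19 showed no such gap in any of the 10 measures.

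Windows outside the autosomes entered no comparison. In Cell19, file 0 placed 1065 windows of the X chromosome at a mean of 6.72 slices, and file 1 placed 5219 at 7.08. On the Y chromosome, file 0 placed 529 windows at a mean of 3.19 slices (SD over windows 3.16) and file 1 placed 2171 at 2.63 (SD 2.83). These Y means are lower than that of any autosome in the same file, and lower than that of X. File 0 also placed 274 windows of unplaced and unlocalised scaffolds, at a mean of 6.01 slices, and 2 of the mitochondrial genome, where file 1 placed none of either. In each of the 10 nuclei, scaffolds and the mitochondrial genome were in 1 of the 2 files.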

How the results depend on the processing

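Over the 10 measures, 72 alternative values were computed, and in 62 of them Cell19 stayed on the same side of the mean of the nuclei it was set against. No test reached 0.1, and the lowest p was 0.2. The other 10 values turned the direction. Against Cell20 alone, as values with no test, the different against same autosome distance was 0.11 to 0.03, relative extent 0.983 to 0.9997, the ratio of shared windows 1.85 to 2.50 and the fullest slice of a bin 41.2% to 38.6%. Against the other B16F nuclei, relative extent was 0.983 to a mean of 0.996 (exact permutation test, p = 0.75) and the fullest slice 41.2% to 34.4% (p = 0.25, the smallest that 1 against 3 allows). The order agreement of the files was 0.63 to 0.51 without shared windows and 0.86 to 0.84 without the outermost slices. The makeup of slices was 13.5% to 15.1% in file 1 alone, and the fullest slice 48.9% to 45.7% in file 0 alone. The cause was not tested. No paired analysis was possible because the profiles of a nucleus are serial slices, whose numbers pair nothing between nuclei. Cell19 is 1 nucleus, so no value here has a replicate, and the number of located windows, which differs between files, limits every position.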
